A study of Mus musculus with 36 samples.

Results

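A set of 5 genes that mark tumours grown from the mouse bladder cancer line MB49 were followed across every library of the series: Fgf15, Ntrk3, Msln, Rgs17 and Faim2. They are 5 of 21705 genes in the deposited table, found by their symbols, and all 5 were present. They had been picked because their values were high in MB49 tumours and low in the other line-derived tumours, so those values are given as a description and are not tested (27.6% of all genes passed as higher in MB49 in that comparison). The question asked of libraries outside that choice was whether the MB49 culture already holds them. All 5 were present in it. Fgf15, Ntrk3, Rgs17 and Faim2 were each highest in MB49 among 6 cultures, whereas Msln in MB49 ranked 5 of 6. For Msln the label of an MB49 marker thus describes only the line-derived tumours that chose it and goes against the cultures.

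RNA sequencing of 36 mouse libraries was examined. There were 4 tumours derived from MB49, 4 from UPPL1541 and 2 from BBN963, 1 culture of each of these lines, 3 further cultures called KT1044, KT1970 and KT1975, 9 UPPL primary bladder tumours and 11 BBN primary bladder tumours. UPPL animals carry Upk3a-CreERT2, Trp53 alleles flanked by loxP sites and a luciferase reporter at Rosa26, so that deletion is driven from a uroplakin promoter. BBN animals have the genotype label Ctrl and were given N-butyl-N-(4-hydroxybutyl)nitrosamine, a bladder carcinogen. The UPPL1541 tumours carry the UPPL genotype label and the label Untreated. MB49, BBN963 and KT libraries are labelled Ctrl and Untreated, the UPPL1541 culture also reads Ctrl, and the labels say neither what KT stands for nor which host or site the line-derived tumours grew in. Each line is 1 line, so its tumours repeat that line and not independent cancers. MB49 itself is a long-used transplantable line made by treating mouse bladder epithelium with a carcinogen in culture. The deposited values are gene estimates scaled so that the upper quartile of each library is close to 1000, and they are not per length, so a higher value of 1 gene than of another does not mean more transcripts. A single read was worth 0.786 to 1.46 of these units, and libraries held 9.29 to 17.93 M reads, with 12.42 M in the MB49 culture (M, a unit of 1e6 reads). Low values most often stood for 1 read in cultures but for 2 to 19 reads in tumours (3 to 11 in MB49 tumours), so low values are less precise in tumours than the totals imply, although single reads are listed too.

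The 5 genes belong to unrelated systems. Fgf15, the mouse counterpart of human FGF19, is a secreted growth factor best known from the ileum, where the bile acid receptor FXR (Nr1h4) induces it and from where it acts on liver through FGFR4 and its co-receptor beta-Klotho (Klb). Ntrk3 encodes TrkC, the receptor tyrosine kinase for neurotrophin-3 (Ntf3). Msln encodes mesothelin, a surface glycoprotein of mesothelial cells that is raised in several human cancers and binds MUC16. Rgs17 encodes a regulator that speeds GTP hydrolysis by inhibitory G alpha subunits and is mainly a brain protein, and Faim2 encodes Lifeguard, a neuronal membrane protein that protects cells from Fas-induced death.

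Fgf15, the ligand of the group, stood at 1686, 487, 1884 and 1319 deposited units in MB49 tumours 1 to 4. It was listed at 0 in all 4 UPPL1541 tumours and at 1.27 and 0 in the BBN963 tumours. The groups did not overlap. In cultures Fgf15 was 1127 units (1170 reads) in MB49, against 14.9 in UPPL1541, 19.5 in BBN963 and 0 in each KT culture. The MB49 culture was thus 55.1-fold above the next culture on the value + 1 scale, and it lay inside the range of its own tumours, as it did for 35.1% of genes.

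Ntrk3, the receptor, stood at 711, 2948, 1610 and 1362 units in MB49 tumours 1 to 4 and was listed at 0 in all 6 other line-derived tumours. In the MB49 culture it was 293 units (304 reads), and it was 0 in all 5 other cultures. Set against 3 reads, the limit that a count of 0 allows in a library, the MB49 culture was at least 80.3-fold higher; this covers counting error only. Every MB49 tumour lay above the MB49 culture, which held 17.7% of the tumour mean, the lowest share among the 5 genes.

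Msln, the surface antigen, stood at 4154, 6259, 4272 and 4443 units in MB49 tumours, against 66.9, 274, 411 and 52.4 in UPPL1541 tumours and 0 in both BBN963 tumours. In cultures the order was different. Msln was 1710 units in the MB49 culture, against 4997 in UPPL1541, 1064 in BBN963 and 9187, 15398 and 12824 in KT1044, KT1970 and KT1975. The highest culture, KT1970, held 9.00 times the MB49 level, and only BBN963 lay below MB49. The sum of 10 other genes on the mesothelial list was 1083 to 1389 in MB49 tumours and 600 in the MB49 culture, against 6970 to 50438 in the other cultures. That gap included Krt19, which is on the epithelial list too, at 0 in the MB49 culture, against 2996 to 46210 in the others, and Bnc1 at 0, against 863 to 1703. Upk3b, Wt1, Calb2, Rspo1 and Gpm6a were at 0 in the MB49 culture, but Calb2 and Rspo1 were at 0 in all 6 cultures and Wt1 reached only 1.11 units in the others. Upk3b and Wt1 were at 0 in all 10 line-derived tumours, MB49 and others alike.

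Rgs17, the G protein regulator, stood at 2120, 2146, 2570 and 2404 units in MB49 tumours, against 32.3, 6.52, 11.2 and 28.6 in UPPL1541 tumours and 0 in both BBN963 tumours. It varied least of the 5 among MB49 tumours, with a coefficient of variation of 9.3% (SD over mean, n = 4). In cultures Rgs17 was 1429 units (1483 reads) in MB49, against 0 in UPPL1541, 318 in BBN963 and 11.1, 31.9 and 40.0 in KT1044, KT1970 and KT1975. The BBN963 culture made Rgs17 the least separated of the 4 genes that were highest in MB49: MB49 was 4.49-fold above BBN963 and 34.9-fold above the next culture, KT1975. The BBN963 tumours, in contrast to their own culture, were listed at 0.

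The promoter of Rgs17 is shown because Rgs17 is the member with the steadiest MB49 level, and it is the 1 member of 5 with an entry in the promoter table used. The window runs from 250 bases before to 50 bases after the annotated start (RefSeq, GRCm38.p6, chr10:5922351-5922650, minus strand), printed 5′ to 3′ with each CpG in capitals.
Rgs17: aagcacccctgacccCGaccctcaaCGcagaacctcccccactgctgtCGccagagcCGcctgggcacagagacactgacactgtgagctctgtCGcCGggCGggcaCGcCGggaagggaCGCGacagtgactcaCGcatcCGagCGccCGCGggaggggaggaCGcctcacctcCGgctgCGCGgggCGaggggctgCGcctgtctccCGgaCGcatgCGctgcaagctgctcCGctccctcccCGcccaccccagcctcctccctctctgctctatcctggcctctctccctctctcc
It holds 27 CpG in 300 bases and 71.0% G and C. The median over 32851 mouse promoters of this length was 7 CpG, and 84.5% of them held fewer than the Rgs17 window. A set of 6 motifs were searched on both strands, with no overlap rule applied. The GC box GGGCGG was found at 2 places (35.7% of promoters hold it) and the AP-1 motif TGACTCA at 1 (5.2%). The TATA box TATAAA (13.6%), the cyclic AMP element TGACGTCA (1.8%), the TEAD motif CATTCC (14.7%) and the E-box CACGTG (7.2%) were not in this window. These are matches of letters, and the series holds no measurement of binding or methylation there.

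Faim2, the death receptor inhibitor, stood at 3296, 2270, 3327 and 2911 units in MB49 tumours, against 7.17, 0, 27.3 and 20.2 in UPPL1541 tumours and 0 in both BBN963 tumours. In cultures it was 1562 units (1621 reads) in MB49, against 1.87 in UPPL1541, 0 in BBN963 and 18.9, 1.10 and 0.889 in the KT cultures. MB49 lay 78.6-fold above KT1044, the next culture.

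**Figure D1:**
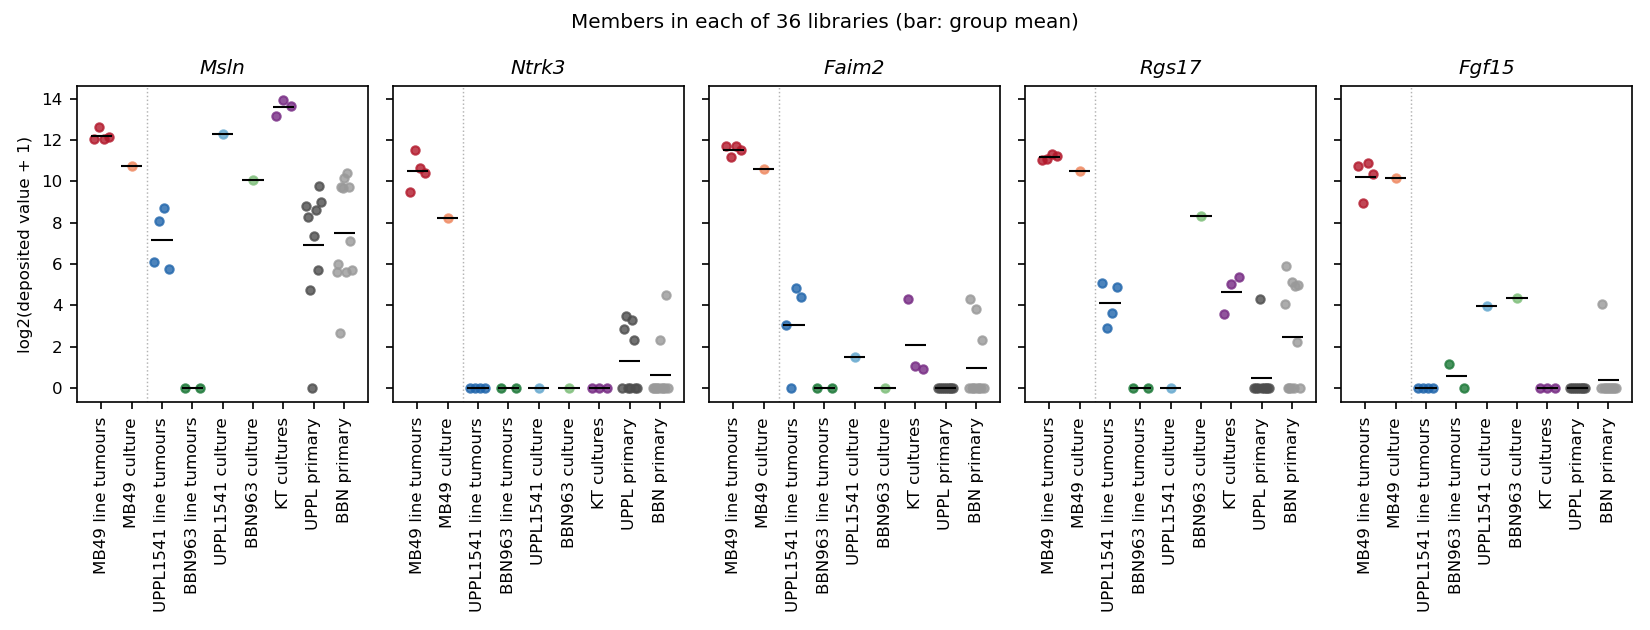
Each point is 1 of the 36 libraries, with log2(deposited value + 1) on the vertical axis, groups on the horizontal axis, MB49 at the left of the dotted line, and a bar at each group mean of the log2 values. Ntrk3, Faim2, Rgs17 and Fgf15 are high in the MB49 tumours and the MB49 culture, whereas Msln is higher in the KT and UPPL1541 cultures than in the MB49 culture.

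The plot of all libraries shows the same split in every group: for Fgf15, Ntrk3, Rgs17 and Faim2 all 5 MB49 libraries lay at least 4-fold above all 31 others on the value + 1 scale. Only 34 of 16372 genes had that pattern (0.208%), and 4 of the 5 members were among them; the tumour part of it had chosen the members. A 100-fold margin was held by 4 genes (0.0244%), none of them a member. The choice was made on values of line-derived tumours and not of cultures, although earlier results of these data were known. There 4 of the 5 members lay at least 4-fold above every other culture, against 1.82% of 13620 genes tested. They also held rank 1 of 6 cultures, against 18% of genes.

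The members were picked from tumours, and the same count was therefore taken over all genes with a like tumour pattern. All 4 MB49 tumours lay at least 4-fold above every other line-derived tumour for 275 of 14604 genes (1.88%), the 5 members included. The MB49 culture was highest of the 6 cultures for 50.5% of these 275 genes and at least 4-fold above every other culture for 27.3%. It was listed at 0 for 10.5% of them. Among the 83 with a tumour mean of at least 1000 units, 32.5% had the 4-fold culture difference. By the fold in tumours (lowest MB49 tumour over highest other), Ntrk3 ranked 4, Fgf15 10, Faim2 18 and Rgs17 19 among all genes, and Msln 106.

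**Figure D2:**
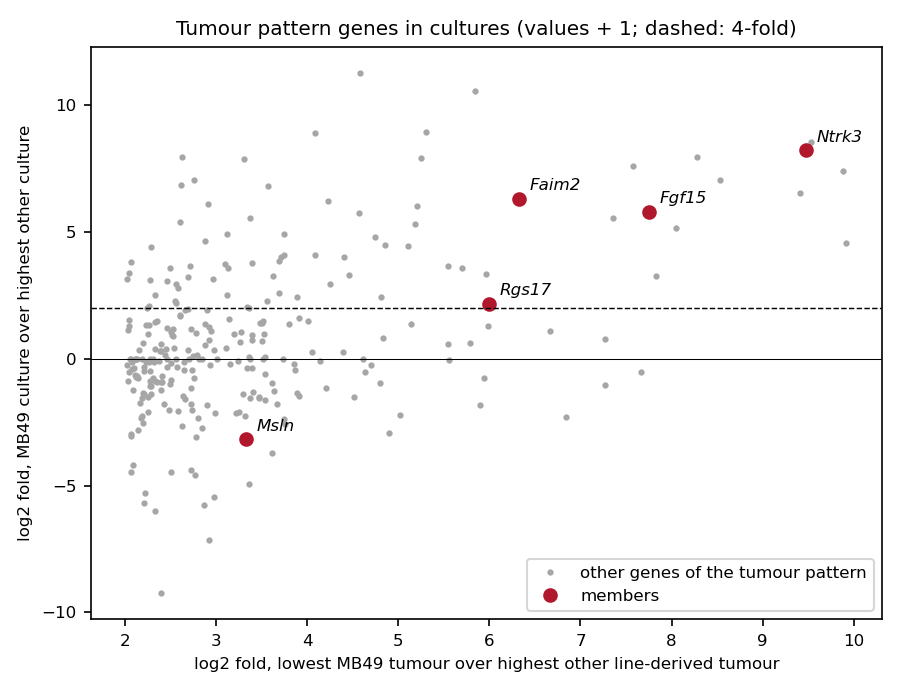
Each point is 1 of the 275 genes for which all 4 MB49 tumours lay at least 4-fold above the other line-derived tumours. The horizontal axis gives the log2 fold of the lowest MB49 tumour over the highest other tumour, the vertical axis that of the MB49 culture over the highest other culture (values + 1), and the dashed line marks 4-fold; 4 members lie above it and Msln lies below 0.

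The cultures were compared with limma on log2(value + 1), the single MB49 culture being assumed to vary like the 5 other lines. Faim2 was higher in the MB49 culture by a log2 difference of 9.05 (SE 1.67, limma adjusted p = 0.022). Ntrk3 differed by 8.20 (limma adjusted p = 0.0045), but it entered the fit only through the MB49 culture and was 0 in the 5 others, so its SE of 1.02 is borrowed from other genes and its p shows no spread of its own. With a filter at 100 units its limma adjusted p was 0.062. Fgf15 differed by 8.47 (SE 2.15) and missed the threshold of 0.05 (limma adjusted p = 0.070), as did Rgs17 with 6.02 (SE 2.65, limma adjusted p = 0.26). Msln differed by -1.87 (SE 1.35, limma adjusted p = 0.50). Thus 2 of 5 members passed, both higher in MB49 and Ntrk3 with that limit, against 6.97% of genes in either direction and 0.822% higher. For a single gene, an exact permutation test of 1 culture against 5 cannot go below a one-sided p of 0.167. The Faim2 call was lost without UPPL1541, KT1970 or KT1975 (limma adjusted p = 0.0504 to 0.0632), where 1 of the 5 members passed, and Fgf15 passed without BBN963 (limma adjusted p = 0.048). Against the 3 KT cultures alone, the log2 differences were -2.83 for Msln, 5.82 for Rgs17, 8.51 for Faim2 and 10.14 for Fgf15. Fgf15 was 0 in each KT culture, so there, like Ntrk3, it entered the fit only through the MB49 culture and had no spread of its own.

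Set beside their own culture, MB49 tumours averaged 4782 ± 992 units of Msln, 1658 ± 940 of Ntrk3, 2951 ± 492 of Faim2, 2310 ± 216 of Rgs17 and 1344 ± 617 of Fgf15 (SD, n = 4 each). The culture level was 35.8% of that mean for Msln, 17.7% for Ntrk3, 52.9% for Faim2, 61.9% for Rgs17 and 83.9% for Fgf15. All 4 tumours lay above the culture for 4 of the 5 genes, a pattern that 42.4% of all genes had; for Fgf15 it was 3 tumours of 4. The log2 differences of tumours minus culture, given as a description, were 2.32 for Ntrk3, 1.46 for Msln, 0.90 for Faim2, 0.69 for Rgs17 and 0.08 for Fgf15, while the median over all genes was 0.38. That median is -0.22 after quantile normalization, so its sign depends on the scaling.

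The MB49 tumours also differed among themselves. Tumour 2 had the highest Msln and Ntrk3 and the lowest Faim2 and Fgf15 of the 4. The highest tumour held 4.15 times the lowest for Ntrk3 and 3.87 times for Fgf15, against 1.51 for Msln, 1.47 for Faim2 and 1.21 for Rgs17.

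**Figure D3:**
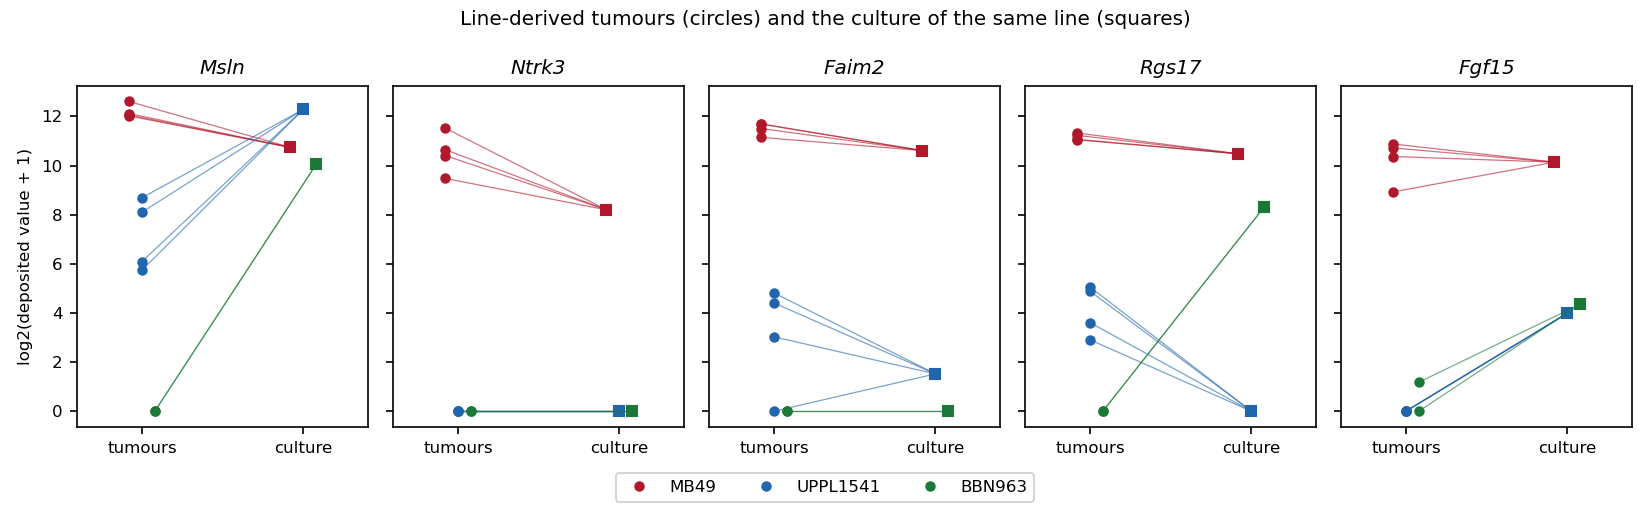
For each member, circles are line-derived tumours and squares the culture of the same line, on log2(deposited value + 1), with lines joining each tumour to its culture. Msln lies above the culture in all 4 MB49 tumours and below it in all 4 UPPL1541 and both BBN963 tumours; Ntrk3 is at 0 in both other lines.

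Line-derived tumours hold host cells, and in bulk libraries fewer cells of a type and less RNA per cell cannot be told apart. Markers of other cells moved with the tumours. The sum of 11 leukocyte markers was 46730 to 65911 in MB49 tumours, against 2023 in the MB49 culture. Cd74, which encodes the invariant chain of MHC class II, was 1845 units in the MB49 culture, against 0 to 53.5 in the other cultures. The sum of 10 fibroblast markers was 19430 to 139548 in MB49 tumours, against 1006 in the MB49 culture. Ptprc and Csf1r, which define leukocytes and macrophages, were listed at 0 in the MB49 culture, as were Col3a1 and Pdgfrb of fibroblasts. Among the other fibroblast markers, Col1a1 and Col1a2 were 21.2 and 1.93 units there. Pdgfra was 967 units in the MB49 culture, most of the fibroblast sum, against 15.9 to 465 in the other cultures. It stood at 415 to 1490 units in MB49 tumours. The part of host cells in the members' tumour values was not tested.

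Neuronal and Schwann cell genes were partly present, in MB49 as in the other cultures. Of 12 neuronal markers, Elavl4, Snap25, Syt1, Nefl and Nefm were at 0 in the MB49 culture and in all 4 MB49 tumours. Tubb3, a tubulin found in neurons and in many cancer lines, stood at 5643 to 11952 units in MB49 tumours and 904 in the MB49 culture, against 9.78 to 993 in the other cultures. Syp, a synaptic vesicle gene, stood at 7.28 to 29.2 units in MB49 tumours and 1.93 in the MB49 culture, against 0.889 to 9.73 in the other cultures. Gap43, on the same list, was 0 in the MB49 culture, against 3.73 to 496 in the others. Of 10 Schwann cell genes, Sox10 and Foxd3 were at 0 in all 5 MB49 libraries. Erbb3 was 3447 units in the MB49 culture, against 174 to 2947 in the other cultures. Mbp was 242 units in the MB49 culture, below all other cultures (352 to 1997). Pmp22 and Ncam1, at 372 and 294 units, lay inside the range of the others (42.6 to 917 and 87.7 to 696).

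Epithelial markers checked the labelled tissue, and most were missing from MB49. Krt5 was 0.964 units in the MB49 culture, against 47816 to 106940 in the other cultures (log2 difference -15.01, SE 0.53, limma adjusted p = 8.6e-05). Epcam, an epithelial adhesion gene, was 0 in the MB49 culture, against 4081 to 16877 in the others (-12.91, SE 0.71, limma adjusted p = 1.8e-04). Of 12 epithelial markers tested, 7 passed as lower in the MB49 culture and 0 as higher; their median log2 difference was -8.47, against -0.32 over all genes. Krt8 and Krt18, the keratins of simple epithelium, were kept at 2325 and 5265 units in the MB49 culture, inside or below the range of the others (3580 to 19614 and 4462 to 27052).

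The partners of FGF15 and TrkC were examined next. The co-receptor gene Klb and the receptor gene Fgfr4 were listed at 0 in all 5 MB49 libraries, as were the bile acid genes Nr0b2, Slc10a2 and Cyp7a1. None of them exceeded 2.48 units in the other cultures and line-derived tumours, so their absence was not particular to MB49. Other bile acid genes of the list differed: Fabp6 was 0 in MB49 tumours, against 0 to 62.6 units in the other line-derived tumours. Cyp8b1 was 0 to 1.07 units, against 0 to 74.3. In line-derived tumours 1 of 7 tested genes of this axis passed as higher in MB49 and 4 as lower. Of all genes, 50.2% passed there, 27.6% as higher. Klb, Fgfr4, these bile acid genes and Nr1h4 below were named for their role after their values were seen. Nr1h4, the gene of FXR, was present at low levels: 89.6 to 95.7 units in MB49 tumours, against 0 to 28.6 in the other line-derived tumours (log2 difference 4.96, SE 0.89, limma adjusted p = 8.1e-04). It was 50.1 units in the MB49 culture, against 0 to 46.6 in the other cultures, and did not pass there (limma adjusted p = 0.45). Fgf21, the related metabolic hormone, was 11.6 units in the MB49 culture, against 3.33 to 98.97 in the others, and Fgf23, the phosphate hormone, was 0 in all 6. Fgfr2 was 0 in the MB49 culture, against 631 to 4135 units in the others (-10.55, SE 0.99, limma adjusted p = 0.0013), and Fgfr1 was 1810 units, against 33.0 to 937. Of 16 genes of this axis in the table, 5 could be tested in cultures, of which Fgfr2 was the 1 that passed.

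Ntf3, the ligand of TrkC, was listed at 0 in the MB49 culture and in all 4 MB49 tumours. It was low elsewhere too, at 0 to 10.3 units in the other cultures (median 0) and 0 to 19.9 in the other line-derived tumours. Ntf5, which encodes neurotrophin-4, was lower in the MB49 culture at 7.71 units, against 134 to 322 in the others (-4.56, SE 0.68, limma adjusted p = 0.0099). Ngfr, the p75 receptor that binds all neurotrophins, was 3828 units in the MB49 culture, against 30.4 to 251 in the others (5.48, SE 1.10, limma adjusted p = 0.031). It fell in MB49 tumours, to 71.8 to 216 units, against those 3828 units in the MB49 culture (-5.02, limma adjusted p = 1.3e-04), where 28.1% of all genes passed in either direction and 21.8% as higher in tumours. Ntrk3 ran the other way between tumour and culture. That is a description, since the MB49 tumours chose Ntrk3 and both genes rest on the single MB49 culture. Ptprs, a phosphatase that binds TrkC at synapses, was lower in the MB49 culture (155 units, against 3867 to 6575; -5.00, limma adjusted p = 7.8e-04). Of 12 neurotrophin genes tested in cultures, 1 passed as higher and 3 as lower in MB49, with a median log2 difference of 0.04. With quantile normalization these counts were 0 and 1, and with edgeR the median was -0.80. In line-derived tumours, where 50.2% of all genes passed, 2 of 13 were higher in MB49 and 6 were lower. Bdnf, a neurotrophin gene, was higher at 279 to 354 units in MB49 tumours, against 0 to 28.6 in the other line-derived tumours (6.31, limma adjusted p = 9.0e-07).

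**Figure D4:**
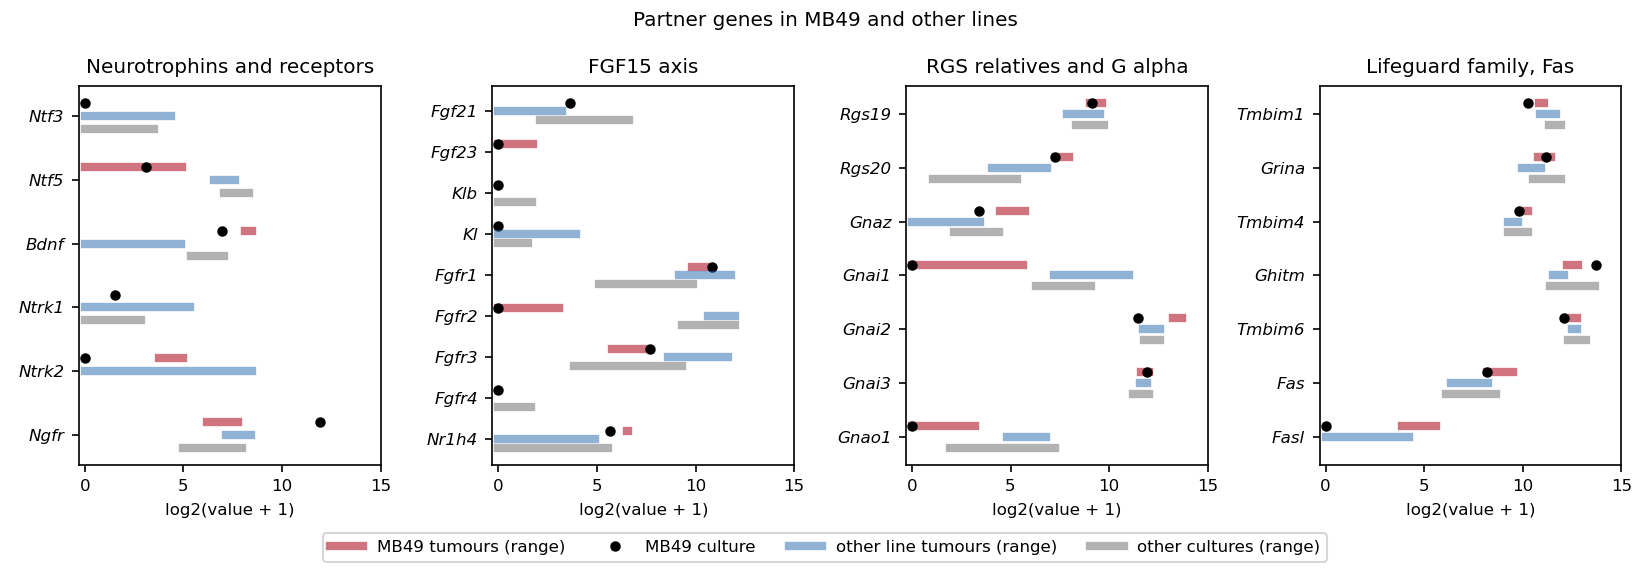
Partner genes of the members on log2(deposited value + 1): red bars span the 4 MB49 tumours, black points are the MB49 culture, blue bars span the 6 other line-derived tumours and grey bars the 5 other cultures; groups at 0 throughout show no bar. Ntf3, Klb and Fgfr4 sit at 0 in MB49, with Klb and Fgfr4 near 0 in the other lines as well. Ngfr sits above all bars in the MB49 culture.

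For Rgs17, the other RGS genes and the G alpha subunits they act on were counted. In cultures 18 of 26 passed the filter; 3 passed as lower in MB49 and 0 as higher, with a median log2 difference of -0.48; quantile normalization and edgeR each left 1 lower. Gna11, a G alpha q family subunit, was 243 units in the MB49 culture, against 1202 to 1428 (-2.46, SE 0.30, limma adjusted p = 0.0040). Gnai1, an inhibitory subunit, was 0, against 76.4 to 539 (-7.66, SE 1.24, limma adjusted p = 0.013). The inhibitory subunits Gnai2 and Gnai3 were present in the MB49 culture at 2873 and 3871 units. Rgs20, a close relative of Rgs17 named after its values were seen, was 152 units in the MB49 culture, against 1.11 to 39.1, and did not pass (3.75, limma adjusted p = 0.26). In line-derived tumours 12 of 23 passed as higher in MB49 and 5 as lower, with a median of 0.94, against 0.11 over all genes, of which 50.2% passed and 27.6% as higher. Rgs1, an immune cell member, was listed at 0 in the MB49 culture and stood at 137 to 326 units in MB49 tumours (7.78, limma adjusted p = 1.3e-04), and Rgs2 stood at 321 to 419 units in MB49 tumours, against 39.5 in the MB49 culture (3.11, limma adjusted p = 3.6e-04). Leukocyte markers moved in the same direction, and their part in these values was not tested.

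For Faim2, the Lifeguard family and the Fas pathway showed no call in cultures: 0 of 12 genes passed limma at an adjusted p of 0.05, 3 had an unadjusted p under 0.05, and edgeR called 0. Their median log2 difference was 0.28. Tmbim1 was 1245 units in the MB49 culture, against 2595 to 3916 (-1.31, limma adjusted p = 0.080), and Grina was 2280 units, against 1458 to 3896. Fas, the death receptor itself, was 291 units in the MB49 culture, against 67.2 to 397, and its ligand gene Fasl was 0 in all 6 cultures. In line-derived tumours 11 of 13 genes were higher in MB49 and 1 was lower, where 27.6% of all genes passed as higher. Bid, which links caspase-8 to mitochondria, stood at 806 to 1363 units in MB49 tumours, against 294 to 720 in the other line-derived tumours (1.29, limma adjusted p = 6.4e-05). Leukocyte markers were also higher in MB49 tumours than in the other line-derived tumours (8 of 11), and their part was not tested.

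For Msln, 2 of 9 partner genes passed as lower in the MB49 culture and 0 as higher, with a median of -1.33. Mslnl, the mesothelin-like neighbour, was 0.964 units in the MB49 culture, against 0 to 17.03. Cd24a, a surface sialoprotein gene, was 0, against 4061 to 9988 (-12.75, SE 0.59, limma adjusted p = 1.2e-04). Tead2, a partner of YAP, was 0, against 222 to 1164 (-9.09, SE 0.94, limma adjusted p = 0.0020), whereas Yap1 was 2935 units, against 2267 to 3600.

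In the primary tumours Msln spanned a wide range and the other members were low or absent. The choice did not use values of these libraries, although earlier results of these data were known. Msln was the 1 member of 5 that passed the filter on low values. Its lowest, median and highest values were 0, 309 and 887 units in 9 UPPL tumours and 5.40, 135 and 1341 in 11 BBN tumours. The groups overlapped (log2 difference -0.57, SE 1.14, limma adjusted p = 0.76), where 18.5% of all genes passed and 5.71% were higher in UPPL. All 20 lay below every MB49 tumour in Msln. This is a description, since high Msln in those tumours was part of the choice, and the share of all genes with this pattern was not counted. The sign of the Msln difference turned without UPPL1595 (0.29) and without the 5 libraries with the highest frequent low values (0.17).

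Ntrk3 was above 0 in 4 of 9 UPPL and 2 of 11 BBN primary tumours, up to 21.6 units (exact permutation test, two-sided p = 0.34). Faim2 was above 0 in 0 of 9 UPPL and 3 of 11 BBN tumours, up to 18.7 units (exact permutation test, two-sided p = 0.29). Fgf15 was above 0 in 0 of 9 and 1 of 11, at 15.6 units (exact permutation test, two-sided p = 1.0). Rgs17 was above 0 in 1 of 9 UPPL and 6 of 11 BBN tumours, up to 59.3 units (exact permutation test, two-sided p = 0.054, unadjusted, 4 such tests).

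The genes whose profile was most like each member were named by Pearson correlation of log2(value + 1) over the 36 libraries among 12430 genes. The points share lines and so are not independent; the values are descriptive. Ntrk3 was closest to Dppa4 (r = 0.936), Elfn2 (0.927) and Slc4a5 (0.925), and Fgf15 to Elfn2 (0.958), Lhx5 (0.949) and Slc4a5 (0.945). Faim2 was closest to Pld5 (0.939), Dppa2 (0.929) and Il12rb1 (0.925). Rgs17 was closest to Il12rb1 (0.896), Raet1d (0.863) and Faim2 (0.854). Msln was closest to Zfp941 (0.801), Zfp57 (0.80) and Ktn1 (0.799), a lower likeness than for the other members. Among the members themselves, pairs without Msln had r of 0.72 to 0.89 over all 36 libraries and of -0.17 to 0.53 over the 31 libraries without MB49.

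The members lie on 4 chromosomes, with Ntrk3 and Fgf15 on chromosome 7, Rgs17 on 10, Faim2 on 15 and Msln on 17. The 5 genes on each side of every member, 50 in all by their order in RefSeq GRCm38.p6, were examined for a like pattern. In MB49, 0 of the 50 lay at least 4-fold above every other culture, and 5 were highest. Only 38 of the 50 passed the filter in cultures, and all 5 were among these 38. Over the 13620 genes that passed it, the shares were 1.82% and 18%. Of 38 tested in cultures, 1 passed as higher, against 0.822% of all genes. It was Syne1, a nuclear envelope gene near Rgs17, at 1656 units in the MB49 culture, against 187 to 417 in the others. The neighbours of Fgf15 nearest to it in the deposited table, Fgf4 and Oraov1, were at 0 and at 299 units in the MB49 culture; Oraov1 was 127 to 408 in the other cultures. In line-derived tumours 17 of 39 tested neighbours were higher in MB49 and 3 were lower, where 27.6% of all genes passed as higher; 6 of the 17 lay beside Fgf15, of 7 tested there, and 1 beside Msln, of 7 tested there. Among them Ccnd1, the cyclin D1 gene, stood at 17572 to 23077 units in MB49 tumours, against at most 3533 in the other line-derived tumours. In cultures Ccnd1 was 16799 units in MB49, against 1521 to 18316 in the others.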

How the data were processed

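The deposited table holds 1 signal value per gene and library, which the authors scaled to put the upper quartile of the values other than 0 at 998.9 to 1000.0. RSEM, Picard 1.64, SAMtools and mm9 are named in the submitters' processing notes, with no role given. RNA was isolated with an RNeasy kit and libraries were made with TruSeq Stranded mRNA, per the labels' protocols. Dividing each deposited signal value by the value of 1 read gave whole numbers (within 0.02) for 91.3 to 96.3% of values above 0, used for read numbers and for an edgeR 4.0.16 fit. The main tests were limma 3.58.1 (trend) in R 4.3.3 on log2(value + 1), with Benjamini-Hochberg adjustment over genes at 10 units or more in at least 1 culture, 9 primary tumours, 2 line-derived tumours, or 1 library for tumours with cultures. A fold change on this scale understates the change of genes with low values. Comparisons were the MB49 culture against 5 other cultures, UPPL against BBN primary tumours, MB49 against the other line-derived tumours (the mean of both lines), and MB49 tumours against the MB49 culture; the last 2 share the MB49 tumours. Members below the filter in primary tumours were tested by exact permutation.

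The members and gene lists were chosen with earlier results of these data known. Genes named are the members, the first 2 genes of each list with up to 2 of smallest adjusted p, the 3 genes most correlated with each member, and those marked as named after their values were seen; some list and marker genes are named as defining markers. Some genes and alleles are not reported here. Labels do not say that samples of a group came from separate animals, so p-values measure only the spread between these samples. Mouse promoters and gene order come from RefSeq GRCm38.p6, another build than the deposited values. In data simulated with known fold changes, limma recovered 6% of 2-fold and 57% of 4-fold changes in the culture comparison (13038 genes). It also made 22 false calls there, against 1 by edgeR. The simulation gave all genes the same dispersion and changed only well-read genes, so these shares need not hold for the real cultures. The numbers of line-derived tumours did not pair samples. Summaries and plots used scipy 1.17.1, matplotlib 3.10.9, pandas 2.3.3 and numpy 2.4.6 under Python 3.11.15.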

Additional observations from a re-analysis of the deposited data

Results flagged for a closer look

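Msln in MB49 tumour 2 (6259 units) lay above the 3 other MB49 tumours (4154 to 4443), the gap being 0.863 of the whole range. Rgs17 in primary tumour UPPL1595 (18.7 units) was the single UPPL primary value above 0, so its gap is the whole range by construction. Chance marks about 1 in 20 groups in this way, a rate that does not apply to such a group with all other values at 0. In all, 11 groups were examined.

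In Msln and Rgs17 every MB49 tumour lay above the MB49 culture, while every tumour of UPPL1541 and BBN963 (Msln) or of BBN963 (Rgs17) lay below its own culture, a difference that was not tested, since the members were chosen on these tumours and each line has 1 culture. The log2 difference of tumours minus culture in Msln was 1.46 for MB49, against -5.13 for UPPL1541 and -10.06 for BBN963. In Rgs17 it was 0.69 for MB49, against -8.32 for BBN963; UPPL1541 had the same direction as MB49, with a mean log2 level of 4.11 in tumours and 0 in the culture. Fgf15 was below the culture in every UPPL1541 and BBN963 tumour, with 3 of 4 MB49 tumours above theirs.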

How the results depend on the processing

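The count of 4 members at least 4-fold above every other culture was the same with a pseudocount of 10, with quantile normalization and without each other culture (4 to 4). The culture comparison called 949 genes, against 597 with quantile normalization, 563 with edgeR on recovered reads, 1739 with the 3 KT cultures alone, 2352 with the spread pooled over all 36 libraries, and 595 to 1078 without 1 culture (595 without KT1970). Which members were called depended on the setting, and every setting rests on the single MB49 culture. Over all alternatives the log2 difference was 4.92 to 11.26 for Ntrk3, 6.89 to 9.73 for Faim2 and 6.25 to 10.14 for Fgf15. It was 4.30 to 6.98 for Rgs17 and -2.83 to -1.55 for Msln. The share of culture calls that were higher in MB49 was 11.8%, against 22.8% with quantile normalization and 21.8% with edgeR; that of tumours against culture was 77.5%, against 52.8% and 60.2%, and that of UPPL against BBN was 30.9%, against 50.1% and 55.1%. The median over all genes in the culture comparison was -0.32, and 0.17 with quantile normalization. Msln between primary tumours changed sign with quantile normalization (0.02) and without UPPL1595 (0.29, range -1.05 to 0.29 without 1 library). It also changed sign without BBN962, UPPL1595 and UPPL1597 together, the primary tumours with a frequent low value of 10 reads or more (0.17). The cause of these changes was not tested. Same-numbered line-derived tumours correlated at -0.093 to 0.066 in their deviations, so the numbers were not used as pairs; with the replicate block 6450 genes were called between line-derived tumours, against 7326, and 2895 between MB49 tumours and culture, against 4340. Leaving out 1 library gave 6271 to 7281 and 3846 to 4587 calls in these comparisons, and 1899 to 2527 between primary tumours, against 2371. The limit throughout is 1 MB49 culture, and low values are less precise in tumours, where they most often stand for 2 to 19 reads.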

Other observations

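Besides the members Fgf15, Ntrk3, Rgs17 and Faim2, 30 genes lay at least 4-fold above all 31 other libraries in every MB49 library; those named here were chosen after their values were seen. Dppa4 and Dppa2, chromatin genes of pluripotent cells, were both among them. Dppa4 stood at 309 to 446 units in MB49 tumours and 243 in the MB49 culture, and was listed at 0 in all 31 other libraries. Dppa2 stood at 96.5 to 310.0 units in MB49 tumours and 237 in the MB49 culture, against at most 14.9 elsewhere. Lhx5, a homeobox gene of the developing forebrain, stood at 681 to 734 units in MB49 tumours and 544 in the MB49 culture, against at most 4.87 elsewhere. Tdrkh, which acts in the piRNA pathway of germ cells, stood at 258 to 490 units in MB49 tumours and 344 in the MB49 culture, against at most 62.8 elsewhere. Hhip, a Hedgehog antagonist, was higher in the MB49 culture (2433 units) than in any MB49 tumour (630 to 1487), against at most 45.6 elsewhere.

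Il12rb1, the interleukin-12 receptor subunit gene most like Rgs17 and among the 3 most like Faim2, stood at 738 to 1341 units in MB49 tumours and at 47.2 in the MB49 culture, against at most 52.1 in the 31 other libraries. Its MB49 culture level thus lay below the highest of the other libraries.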
